A study of Mus musculus with 12 samples.

Results

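Mitochondrial ribosomal protein genes are the nuclear genes that encode the protein subunits of the ribosome inside mitochondria. They were taken from the gene count table as the protein-coding rows whose symbol begins with Mrpl or Mrps followed by a digit, which gave 78 of 56748 rows. Of the 78, 51 encode proteins of the large subunit, among them Mrps30 and Mrps18a despite their names, and 27 are named for the small subunit. The 27 include Mrps36, now known as a subunit of the 2-oxoglutarate dehydrogenase complex, which was kept in all counts. Reads were sufficient to test 77 of them, among 15742 genes tested. The study sequenced polyadenylated RNA from the left ventricle of wild-type C57BL/6J mice, 14 days after heart surgery, in 3 groups of 4 libraries. Mice of the first group received AAV9-Irx3, an adeno-associated virus vector carrying the homeobox transcription factor gene Irx3, through the tail vein, and underwent myocardial infarction (MI) by ligation of the left anterior descending coronary artery (Irx3 MI hearts). Mice of the second group received a control AAV9 vector and the same infarction (control MI hearts). Mice of the third group received the control vector and a sham operation (sham hearts). All groups therefore carried an AAV9 vector, and no sham group with the Irx3 vector was included. The sources used here do not name the promoter that drives Irx3 in the vector. The labels name both left ventricle and cardiomyocytes as the source, and do not say whether each library came from a single mouse or from pooled mice.

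The mitochondrial ribosome translates only the few proteins encoded by mitochondrial DNA, all of them subunits of the oxidative phosphorylation complexes of the inner membrane. Its RNA core comes from mitochondrial DNA, whereas every protein subunit is made in the cytosol from nuclear genes and imported. Compared with its bacterial relatives, the mammalian particle has lost RNA and gained many proteins of its own. Heart muscle is rich in mitochondria and depends on oxidative phosphorylation for contraction.

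Libraries held 13352604 to 19236721 counts, and members took 32065 to 59712 of them. Levels are given as CPM, counts scaled to a common library size after normalisation, and a gene was called when its adjusted p was under 0.05 in edgeR's quasi-likelihood test across all genes tested. Irx3 itself averaged 394 ± 111 CPM in Irx3 MI hearts, against 23.1 ± 6.89 CPM in control MI hearts and 24.5 ± 2.65 CPM in sham hearts (SD, n = 4 each). The log2 difference between Irx3 MI and control MI hearts was 4.09 (SE 0.255, edgeR adjusted p = 1.48e-06; exact permutation p = 0.029, two-sided, the smallest that 70 assignments allow). The sum of 10 cardiomyocyte marker mRNAs was 38170 ± 9197 CPM in Irx3 MI hearts, 43290 ± 14170 CPM in control MI hearts and 94740 ± 6301 CPM in sham hearts. The sum of 8 fibroblast marker mRNAs was 12190 ± 9466 CPM in Irx3 MI hearts and 21180 ± 10260 CPM in control MI hearts, against 707 ± 82.9 CPM in sham hearts, so the libraries held RNA of more than cardiomyocytes. The infarcted libraries also differed among themselves. Mitochondrially encoded genes took 10.5% to 19.01% of counts in Irx3 MI hearts, 0.926% to 5.64% in control MI hearts and 4.50% to 8.22% in sham hearts, with the highest share in Irx3 MI replicate 4 and the lowest in control MI replicate 4.

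The promoters of 4 members described here are shown as examples, and all 4 windows hold a marked match, unlike many member windows. Mrpl37 and Mrpl10 were lower after infarction, Mrpl33 was higher with the Irx3 vector and Mrps26 was lower with it. Each sequence is a RefSeq window of 300 bases, 250 before and 50 after the annotated start, in build GRCm38.p6, written 5′ to 3′ on the strand of the gene. Capitals mark matches, on either strand, to CCGGAAG (a core bound by ETS factors such as GABP), GCATGCG (a core of the NRF1 site) or ATGGCGG (a core of the YY1 site). Mrpl37 lies at chr4:107066817-107067116 on the minus strand and holds ATGGCGG. Mrpl10 lies at chr11:97041332-97041631 on the plus strand and holds GCATGCG on both strands, overlapping. Mrpl33 lies at chr5:31613701-31614000 on the plus strand and holds GCATGCG and CCGGAAG beside each other at the start. Mrps26 lies at chr2:130563507-130563806 on the plus strand and holds CCGGAAG.
Mrpl37: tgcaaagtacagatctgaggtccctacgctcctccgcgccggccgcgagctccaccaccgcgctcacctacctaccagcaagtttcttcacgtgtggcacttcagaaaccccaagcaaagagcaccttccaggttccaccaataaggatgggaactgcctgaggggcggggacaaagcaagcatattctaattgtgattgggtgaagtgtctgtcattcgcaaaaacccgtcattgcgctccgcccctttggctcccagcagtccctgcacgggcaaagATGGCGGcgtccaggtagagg
Mrpl10: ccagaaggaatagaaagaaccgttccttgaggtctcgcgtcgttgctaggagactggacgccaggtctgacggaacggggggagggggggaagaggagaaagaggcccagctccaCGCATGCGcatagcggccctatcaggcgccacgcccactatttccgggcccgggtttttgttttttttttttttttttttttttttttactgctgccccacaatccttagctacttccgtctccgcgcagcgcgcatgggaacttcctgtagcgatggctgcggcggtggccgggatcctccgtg
Mrpl33: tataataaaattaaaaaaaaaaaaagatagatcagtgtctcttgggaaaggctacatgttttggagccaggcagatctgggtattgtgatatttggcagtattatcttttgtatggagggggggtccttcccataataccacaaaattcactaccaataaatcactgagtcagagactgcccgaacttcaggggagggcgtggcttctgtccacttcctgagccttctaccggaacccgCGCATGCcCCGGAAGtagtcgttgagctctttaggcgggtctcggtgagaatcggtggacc
Mrps26: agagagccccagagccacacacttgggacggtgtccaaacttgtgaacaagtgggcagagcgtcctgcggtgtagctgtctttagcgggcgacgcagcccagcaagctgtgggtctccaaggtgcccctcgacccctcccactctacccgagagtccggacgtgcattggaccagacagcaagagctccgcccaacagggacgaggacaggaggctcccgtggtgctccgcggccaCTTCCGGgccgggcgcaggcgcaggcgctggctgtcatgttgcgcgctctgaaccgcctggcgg

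RefSeq windows were found for 69 of the 78 members, 75 windows in all. CCGGAAG was present in 34.7% of the member windows and in 8.86% of all 32851 windows of the same length. GCATGCG was present in 10.7% of member windows and 3.58% of all windows. ATGGCGG was present in 17.3% of member windows and 4.05% of all windows. The GC content of the member windows had a median of 58.7%, against 52.7% over all windows. These matches describe letters in the windows, and binding was not measured. Between control MI and sham hearts, the median log2 difference was -0.54 for 25 tested members with CCGGAAG and -0.79 for 43 without it. With and without GCATGCG the medians were -0.54 and -0.72, and with and without ATGGCGG -0.72 and -0.70. These differences were not tested.

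In sham hearts the members covered a wide range of levels. Per kilobase of transcript, the levels ran from 1.69 CPM for Mrpl32 to 302.5 CPM for Mrpl42, with a median of 32.7 CPM. The highest levels per kilobase in sham hearts were those of Mrpl42, a mitochondria-specific large subunit protein, of Mrpl4 at 234 CPM, whose bacterial homologue lines the peptide exit tunnel, and of the small subunit gene Mrps23 at 177 CPM. The lowest were those of Mrpl32, Mrpl1 at 2.87 CPM and Mrpl47 at 3.62 CPM. Mrpl53 had no count in any of the 12 libraries, which allows at most 0.144 to 0.228 CPM per library for counting error alone. In GENCODE M21, 88.0% of the exonic bases of Mrpl53 are shared with other genes, and the way such reads were counted is not given, so its level is uncertain. The same holds for Mrps34, with 77.8% of its exonic bases shared, and for Mrps25, with 69.8%.

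Comparing control MI with sham hearts asks how infarction changed these genes under the control vector. Mitochondrial ribosomal protein mRNAs were lower after infarction as a group. Summed over members, their level was 2394, 2733, 2439 and 1657 CPM in control MI hearts, against 3708, 3750, 4033 and 3889 CPM in sham hearts. Every control MI library lay below every sham library, and the sham libraries lay close together. Of the 77 genes tested, 52 were called lower and 0 higher. Over all genes tested, 22.4% were called lower and 26.3% higher in this comparison. The median log2 difference of the members was -0.71, against 0.01 over all genes tested, and 76 of the 77 estimates were below 0. The estimates ran from -1.30 for Mrps35 to 0.01 for Mrpl52. In this bulk tissue, fewer cells of a type and less RNA per cell cannot be told apart. The share of counts taken by members was 0.239% ± 0.0459 in control MI and 0.333% ± 0.00686 in sham hearts (SD, n = 4 each), and cardiomyocyte markers moved with it: 7 of 10 were called lower, with a median log2 difference of -1.01, and none was at 0. All 8 fibroblast and all 8 macrophage markers were called higher. Their part in the result was not tested.

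**Figure D1:**
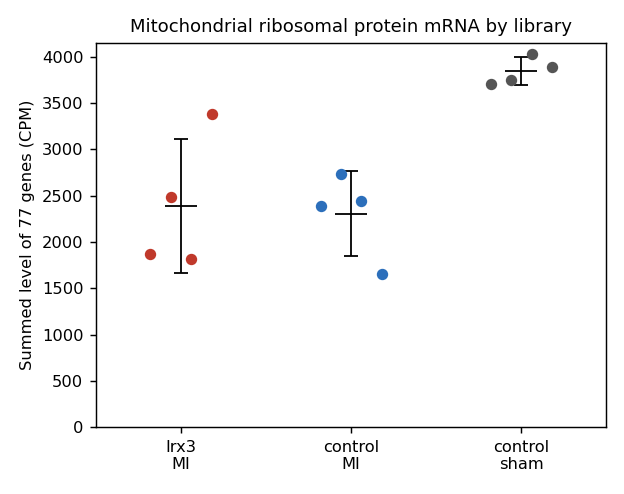
Summed level of the 77 tested mitochondrial ribosomal protein genes (CPM, y axis) in each library by group (x axis). Points are libraries, the long bars are group means and the whiskers 1 SD (n = 4); the 4 sham libraries lie between 3708 and 4033 CPM, above all 8 infarcted libraries, and Irx3 MI replicate 4 is the highest infarcted library at 3378 CPM.

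The decrease reached both subunits, in a comparison where 22.4% of all genes tested were called lower. In the large subunit 34 of 50 tested genes were called lower, with a median log2 difference of -0.75, and in the small subunit 18 of 27, with a median of -0.65. Genes listed with a bacterial homologue and genes listed as mitochondria-specific were both among those called. In the large subunit these were 20 of 29 and 13 of 20, and in the small subunit 10 of 15 and 6 of 10. The mitochondria-specific lists included Mrps18a and Mrps18b, although both are paralogues of bacterial S18. Mrpl55, Mrps28 and Mrps36 were on neither kind of list. Of the 52 genes called lower, 36 were called lower in every alternative fit tried.

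The genes of smallest p after infarction included structural proteins of both subunits. Mrpl38, a protein of the central protuberance, had 56.9, 59.3, 55.1 and 48.5 CPM in control MI hearts and 89.0, 103, 121 and 95.5 CPM in sham hearts. The groups did not overlap, and the log2 difference was -0.89 (SE 0.160, edgeR adjusted p = 0.000623). Mrps35, a mitochondria-specific small subunit protein, had 32.1, 43.4, 35.3 and 17.1 CPM in control MI hearts and 78.3, 76.0, 83.4 and 77.5 CPM in sham hearts. Its log2 difference was -1.30 (SE 0.258, edgeR adjusted p = 0.00123), the most negative of the members, with the lowest value in control MI replicate 4. Mrpl37, also specific to mitochondria, averaged 54.6 ± 12.2 CPM in control MI and 106 ± 7.32 CPM in sham hearts (SD, n = 4 each; edgeR adjusted p = 0.00124). Mrpl23, which lies at the exit of the peptide tunnel, averaged 37.3 ± 3.75 CPM in control MI and 66.4 ± 5.004 CPM in sham hearts, and the small large-subunit protein gene Mrpl36 averaged 18 ± 0.821 CPM in control MI and 31.3 ± 1.45 CPM in sham hearts. Mrps28 averaged 20.9 ± 4.84 CPM in control MI and 46.2 ± 4.31 CPM in sham hearts. In none of these genes did a control MI library reach a sham library.

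**Figure D2:**
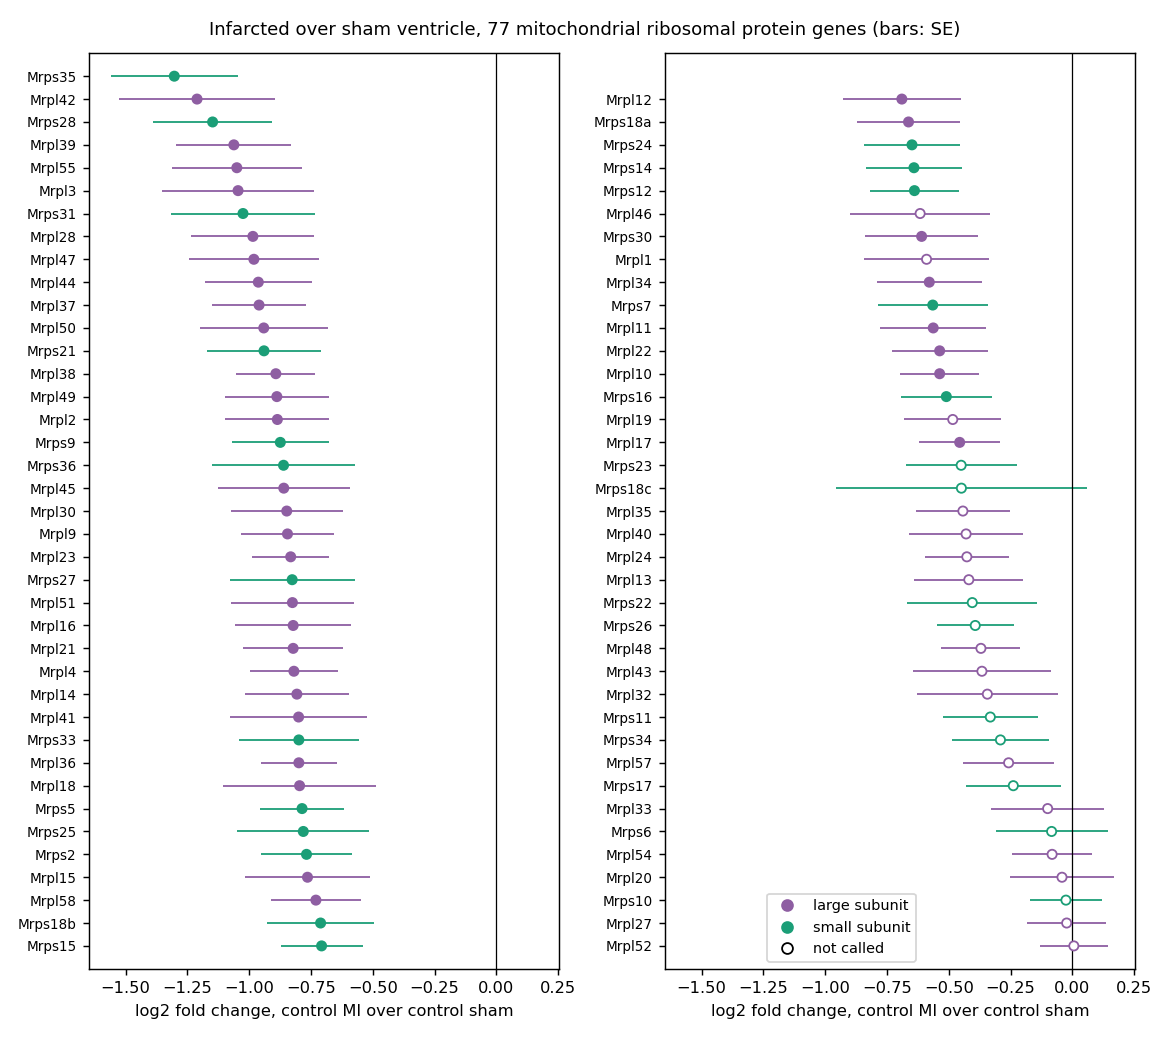
Log2 difference between control MI and sham hearts (x axis) for the 77 tested members (y axis), sorted from the most negative in the left panel to the least negative in the right panel. Filled points were called at an adjusted p under 0.05, open points were not, colours give the subunit and bars 1 SE; all points except Mrpl52 at 0.01 lie below 0.

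By functional region, the share of genes called lower varied, and the differences between regions were not tested. Of all genes tested, 22.4% were called lower in this comparison, or 23.1% after GC correction. Of the stalk, which recruits translation factors, Mrpl10, Mrpl11 and Mrpl12 were called lower, 3 of the 4 tested stalk genes. Mrpl12, the homologue of bacterial L7/L12, had 133, 136, 124 and 85.7 CPM in control MI hearts and 172, 199, 216 and 185 CPM in sham hearts, with a log2 difference of -0.69 (edgeR adjusted p = 0.0284). Mrpl10, which anchors the stalk, averaged 44.1 ± 4.42 CPM in control MI and 64.0 ± 1.96 CPM in sham hearts. Around the exit tunnel and the membrane, 6 of 7 tested genes were called lower. Mrpl45, which attaches the ribosome to the inner membrane, averaged 27.5 ± 7.85 CPM in control MI and 49.8 ± 1.76 CPM in sham hearts, with a log2 difference of -0.86 (edgeR adjusted p = 0.0166). Mrpl44, a protein with a ribonuclease III fold, had a log2 difference of -0.96 (edgeR adjusted p = 0.00275). In the central protuberance 3 of 7 genes were called lower, and 2 of 7 after GC correction, with a median of -0.62 before it. One of them, Mrpl58, a peptidyl-tRNA hydrolase that rescues stalled ribosomes, had a log2 difference of -0.73 (edgeR adjusted p = 0.00485). The calls of 2 stalk genes lay close to the threshold. Mrpl12 stood at -0.68 without sham replicate 2 and at -0.64 without sham replicate 3 (edgeR adjusted p = 0.0565 and 0.0708). Mrpl11 stood at -0.60 to -0.51 without any 1 sham library, control MI replicate 1 or control MI replicate 4 (edgeR adjusted p = 0.0649 to 0.0917), and was not called after GC correction (0.0582).

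Mrps12, whose homologue forms part of the decoding centre, averaged 33.7 ± 7.94 CPM in control MI and 52.4 ± 3.22 CPM in sham hearts, and was called lower. Among genes in which variants cause mitochondrial disease in humans, Mrpl3, Mrps14 and Mrps16 were called lower, with log2 differences of -1.05, -0.64 and -0.51. Mrps16 lost its call without any 1 sham library, at an edgeR adjusted p of 0.0515 to 0.0757. Mrpl3 lost its call when no filter on low counts was used (edgeR adjusted p = 0.0577). Mrps22, also a disease gene, had a log2 difference of -0.41 and was not called (edgeR adjusted p = 0.219). The most abundant member per kilobase in sham hearts, Mrpl42, had 88.7, 131, 85.1 and 40.7 CPM in control MI hearts against 207, 190, 198 and 205 CPM in sham hearts. Its log2 difference was -1.21 (SE 0.315, edgeR adjusted p = 0.00647). Across the 77 members, the log2 difference and the mean level had a Spearman rho of -0.49, a description of genes that share the same libraries.

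Some members showed little difference. Mrpl52 averaged 21.1 ± 2.04 CPM in control MI and 20.97 ± 2.49 CPM in sham hearts. Mrpl33 averaged 11.2 ± 3.90 CPM in control MI and 11.9 ± 2.21 CPM in sham hearts, with overlapping groups and a log2 difference of -0.10 (SE 0.228, edgeR adjusted p = 0.740). Mrps26 averaged 35.4 ± 3.03 CPM in control MI and 46.4 ± 5.90 CPM in sham hearts without overlap, and missed the threshold (log2 difference -0.39, edgeR adjusted p = 0.0510), which it passed, at 0.014 to 0.0414, without any 1 Irx3 MI library, control MI replicate 1 or control MI replicate 4. Mrps23 was not called either (log2 difference -0.45, edgeR adjusted p = 0.113). The 3 paralogues of bacterial S18 differed in level per kilobase of transcript, with 48.9 CPM for Mrps18a, 10.8 CPM for Mrps18b and 3.55 CPM for Mrps18c in control MI hearts. Mrps18a and Mrps18b were called lower, at log2 differences of -0.66 and -0.71. With a replicate block and GC correction, Mrps18a lost its call (edgeR adjusted p = 0.0702). Mrps18c averaged 2.26 ± 1.76 CPM in control MI and 3.06 ± 0.916 CPM in sham hearts and was not called (edgeR adjusted p = 0.486).

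Most other genes of mitochondrial translation were also called lower in this comparison, where 22.4% of all genes tested were called lower. Of 5 mitoribosomal proteins under other names, 4 were called lower, including Dap3, a GTP-binding small subunit protein, at a log2 difference of -0.94. Of 26 assembly and rRNA modification factors, 19 were called lower and 0 higher, among them the GTPases Mtg2 at -1.12 and Noa1 at -0.80. Of 16 translation factors, 13 were called lower, with the recycling factor Gfm2 at -0.98 and the elongation factor Tufm at -1.18. Of 20 mitochondrial aminoacyl-tRNA synthetases, 18 were called lower, with Cars2 and Tars2 both at -0.81. The list of nuclear oxidative phosphorylation genes mostly holds partners of proteins that this ribosome makes. It had 66 of 72 genes called lower and a median of -1.08. The median of the members was smaller in size than this, and the difference between the lists was not tested. Both mitochondrial rRNAs were called lower, with mt-Rnr2 at -2.21 and mt-Rnr1 at -2.04. The libraries were of polyadenylated RNA, so the amount of rRNA in the ribosome was not measured.

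Comparing Irx3 MI with control MI hearts asks what the Irx3 vector changed in infarcted ventricle. The summed level of the members did not separate these groups, and single genes moved both ways. The sum was 1874, 2491, 1821 and 3378 CPM in Irx3 MI hearts, against 2394, 2733, 2439 and 1657 CPM in control MI hearts. The highest and the lowest of these 8 values came from replicate 4 of each group. Of the 77 genes, 16 were called higher and 7 lower, with a median log2 difference of 0.12, and over all genes tested 25.2% were called higher and 24.1% lower. With Irx3 MI replicate 4 left out, 9 were called higher and 17 lower, and with control MI replicate 1 left out 9 were higher and 4 lower. With replicate 4 of both infarcted groups left out, 8 were higher and 24 lower, with a median of -0.21. Replicate 4 also had the highest mitochondrial read share among the Irx3 MI libraries and the lowest among the control MI libraries. Summed fibroblast markers were 3765 CPM in Irx3 MI replicate 4, the lowest infarcted library, and 36190 CPM in control MI replicate 4, the highest. In the same order, summed macrophage markers were 821 and 2799 CPM, and summed cardiomyocyte markers 45540 and 24350 CPM. The part of these differences in the result was not tested.

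In this comparison the log2 difference also varied with the GC content of the transcripts. Spearman's rho between the log2 difference and GC content was -0.71 over the 77 members and -0.65 over 15186 genes, a description of genes that share the same 8 libraries. The 26 members of lowest GC content (41.4% to 48.8%) had 12 called higher and 1 lower, and a median of 0.59, against 0.53 over all genes of the same GC range. The 26 members of highest GC content (52.6% to 60.6%) had 0 called higher and 5 lower, and a median of -0.27, against -0.47 over all genes of that range. In control MI against sham hearts, rho was 0.05 over the members. A fit with a correction for GC content in each library was therefore set beside the main fit. It called 11 members higher and 3 lower, with a median of 0.16, and over all genes tested it called 14.2% higher and 13.2% lower. In both fits 8 members were called higher and 2 lower. For control MI against sham hearts the corrected fit called 0 members higher and 49 lower, with a median of -0.65 and with 29.5% of all genes higher and 23.1% lower, and 48 members were called lower in both fits. Whether the relation to GC content is technical was not tested.

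**Figure D3:**
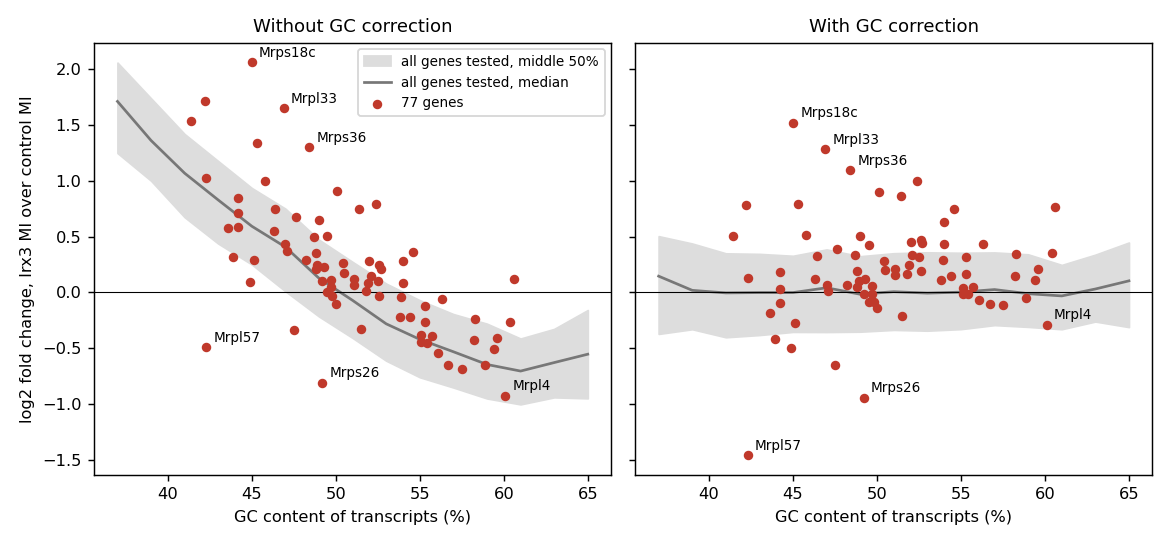
Log2 difference between Irx3 MI and control MI hearts (y axis) against the GC content of the transcripts (x axis, %), without GC correction in the left panel and with it in the right panel. Red points are the 77 members, the grey line is the median and the grey band the middle 50% of all genes tested by GC content; the members follow the grey line in the left panel, and Mrpl33, Mrps18c and Mrps36 lie above the band and Mrps26 and Mrpl57 below it in both panels.

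Mrpl33, a small large-subunit protein with a bacterial homologue, had the smallest p of the genes that were higher with Irx3. It had 27.9, 35.3, 34.3 and 42.6 CPM in Irx3 MI hearts, against 8.54, 16.2, 12.2 and 7.70 CPM in control MI hearts and 12.1, 10.3, 10.4 and 15.0 CPM in sham hearts. Every Irx3 MI library lay above all 8 others. The log2 difference between Irx3 MI and control MI hearts was 1.65 (SE 0.228, edgeR adjusted p = 0.000122), and 1.28 after GC correction (adjusted p = 0.000388). Over the alternatives other than those that left out replicate 4 of both infarcted groups, it ran from 1.28 to 1.89, with an adjusted p of at most 0.00279.

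Mrps36, the KGD4 subunit of 2-oxoglutarate dehydrogenase, had 20.3, 22.8, 21.5 and 41.5 CPM in Irx3 MI hearts, 13.2, 15.9, 7.69 and 6.20 CPM in control MI hearts and 20.9, 17.8, 19.9 and 19.6 CPM in sham hearts. It was higher in Irx3 MI than in control MI hearts in both fits, by 1.30 (SE 0.291, edgeR adjusted p = 0.00259) and, GC-corrected, by 1.09 (adjusted p = 0.0105). Its 3 lower Irx3 MI libraries lay near the sham libraries. Mrpl47, which lies beside the exit tunnel, averaged 15.7 ± 5.52 CPM in Irx3 MI and 6.18 ± 2.07 CPM in control MI hearts (SD, n = 4 each). It was called at 1.34 (edgeR adjusted p = 0.00116) and, GC-corrected, at 0.79 (adjusted p = 0.0176). In GENCODE M21, 24.2% of its exonic bases are shared with genes on the other strand. Mrpl40, a protein of the central protuberance chosen for mention after its values were seen, averaged 15.5 ± 4.55 CPM in Irx3 MI and 8.92 ± 2.78 CPM in control MI hearts, and was called at 0.79 (edgeR adjusted p = 0.0120) and, GC-corrected, at 1.00 (adjusted p = 0.00708). With replicate 4 of both infarcted groups left out, Mrpl33 and Mrps36 were called with and without GC correction, whereas Mrpl40 and Mrpl47 each lost the call in 1 of these settings. The 4 genes were called higher in every other alternative fit tried.

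Mrps18c had the largest estimate of the members, at few counts. It had 6.81, 8.43, 7.79 and 14.6 CPM in Irx3 MI hearts, against 1.18, 4.33, 3.07 and 0.465 CPM in control MI hearts. The groups did not overlap, and the log2 difference was 2.06 (SE 0.499, edgeR adjusted p = 0.00425), or 1.52 after GC correction (adjusted p = 0.0229). In GENCODE M21, 23.2% of its exonic bases are shared with another gene on the same strand. Its paralogues Mrps18a and Mrps18b were not called, at -0.06 and 0.24, and the difference between paralogues was not tested. Mrpl32, a protein matured by the m-AAA protease in yeast and mice, had 10.9, 10.1, 11.1 and 20.7 CPM in Irx3 MI hearts and 3.96, 5.98, 3.36 and 2.74 CPM in control MI hearts. It was called at 1.72 (edgeR adjusted p = 0.000373) and, GC-corrected, at 0.79 (adjusted p = 0.0204), a call that was lost with replicate 4 of both infarcted groups left out.

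For other genes the call was lost with GC correction. Mrpl1, a protein of the L1 stalk with the lowest GC content of the members, was called at 1.54 (edgeR adjusted p = 0.000348) and had a corrected value of 0.51 (adjusted p = 0.0867). Mrps22 was called at 1.00 (edgeR adjusted p = 0.00662) and had a corrected value of 0.51 (adjusted p = 0.105). Mrps30 was called at 0.71 (edgeR adjusted p = 0.0203) and had a corrected value of 0.03 (adjusted p = 0.921). The uncorrected call of Mrps30 was also lost without Irx3 MI replicate 4 (edgeR adjusted p = 0.0707) and without control MI replicate 1 (0.0599).

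Mrps26, a mitochondria-specific small subunit protein, was lower with Irx3 in every alternative. It had 17.7, 21.7, 15.4 and 26.1 CPM in Irx3 MI hearts, against 39.6, 32.3, 34.6 and 34.9 CPM in control MI hearts and 42.4, 46.2, 54.9 and 42.3 CPM in sham hearts. All Irx3 MI libraries lay below all others. The log2 difference between Irx3 MI and control MI hearts was -0.81 (SE 0.158, edgeR adjusted p = 0.00110), and -0.94 after GC correction (adjusted p = 0.00106). Mrpl57 was also called lower in both fits, at -0.49 (edgeR adjusted p = 0.0418) and, GC-corrected, at -1.46 (adjusted p = 0.00104), with overlapping levels of 18.6 ± 3.46 CPM in Irx3 MI and 26.1 ± 6.68 CPM in control MI hearts. Without correction, the call of Mrpl57 was lost without Irx3 MI replicate 1, 2 or 3, control MI replicate 1 or 4, or sham replicate 2 or 4, at an edgeR adjusted p of 0.0504 to 0.153.

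Mrpl4 had 44.4, 60.0, 46.0 and 77.6 CPM in Irx3 MI hearts, against 126, 105, 113 and 88.5 CPM in control MI hearts. These groups did not overlap, and the log2 difference of -0.93 was called (SE 0.179, edgeR adjusted p = 0.00102), while the corrected value was -0.29 (adjusted p = 0.266). Mrpl52, Mrps12, Mrpl2 and Mrpl38 were called lower at -0.65, -0.65, -0.68 and -0.41, and none of them was called after GC correction. Mrpl38 then had a positive value of 0.21 (adjusted p = 0.384), and its uncorrected call was lost without any 1 of 9 libraries, all except Irx3 MI replicate 4, control MI replicate 4 and sham replicate 3 (edgeR adjusted p = 0.0517 to 0.124). Mrpl2 lost its uncorrected call without control MI replicate 1 (0.0504). Their transcripts are among the GC-rich members, at 56.7% to 59.6%. Mrps16 was called lower in the corrected fit, at -0.65 (edgeR adjusted p = 0.0152), against -0.33 in the main fit (adjusted p = 0.151). Without Irx3 MI replicate 4 it was also called uncorrected, at -0.54 (adjusted p = 0.0151). Mrpl36 was called higher in the corrected fit, at 0.43 (edgeR adjusted p = 0.0370), and not in the main fit, at 0.09.

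**Figure D4:**
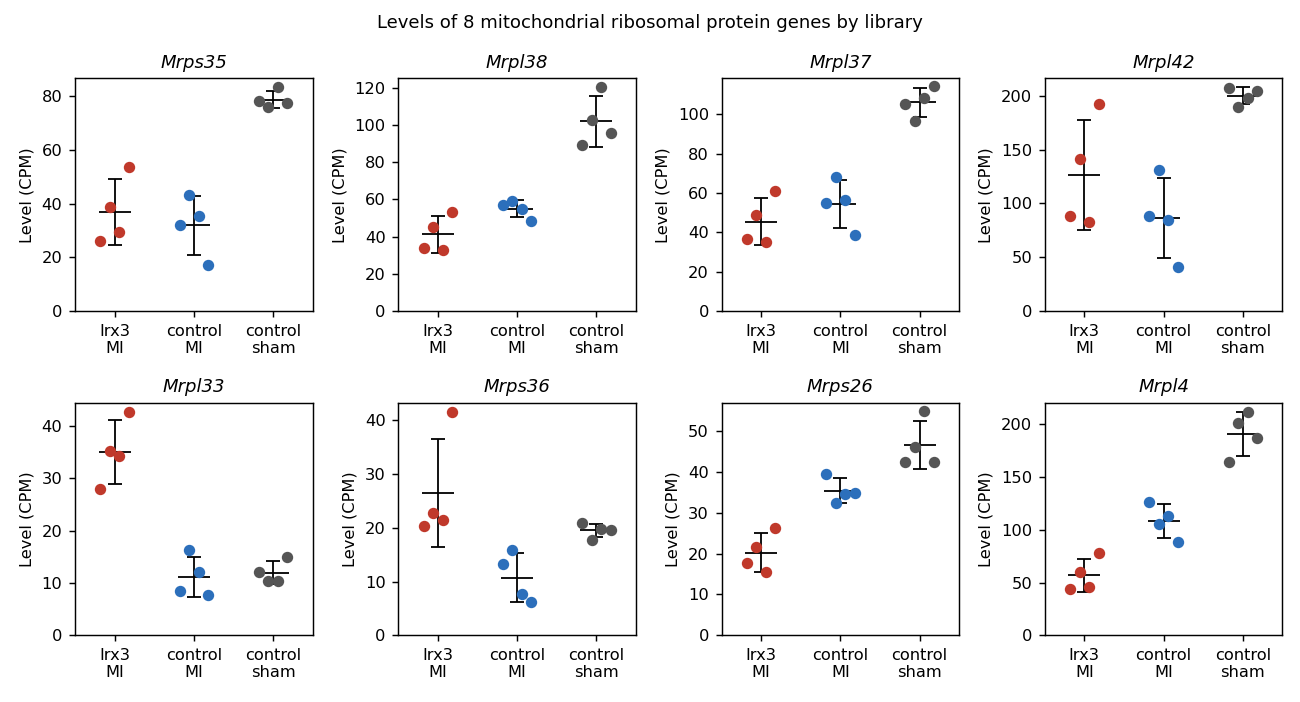
Level in CPM (y axes, from 0) of 8 members in each library of the 3 groups (x axes), with points for libraries, long bars for group means and whiskers for 1 SD (n = 4). In the upper row the sham libraries of Mrps35, Mrpl38 and Mrpl37 lie above all infarcted libraries. In the lower row the Irx3 MI libraries lie above both other groups for Mrpl33 and below both for Mrps26 and Mrpl4.

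Between Irx3 MI and control MI hearts, none of the 4 tested stalk genes was called. Mrpl12 averaged 81.9 ± 33.8 CPM in Irx3 MI and 120 ± 23.2 CPM in control MI hearts (log2 difference -0.55, edgeR adjusted p = 0.0731), with a call at -0.85 without Irx3 MI replicate 4 and at -0.67 without control MI replicate 4. Mrpl10 was also called lower without Irx3 MI replicate 4, at -0.41 (edgeR adjusted p = 0.0192). Of the 7 genes of the exit tunnel list, which does not hold Mrpl4, Mrpl47 was the 1 called. In the central protuberance 2 of 7 genes were called higher and 1 lower, and 2 higher and 0 lower after GC correction. Of all genes tested, 25.2% were called higher and 24.1% lower, or 14.2% and 13.2% after GC correction. Mrpl45, Mrpl44 and Mrpl58 had log2 differences of 0.44, 0.28 and -0.03. Mrpl42 had 88.8, 141, 82.7 and 192 CPM in Irx3 MI hearts, overlapping both other groups, and was not called (log2 difference 0.55, edgeR adjusted p = 0.161). It was called without control MI replicate 2, at 0.82 (adjusted p = 0.0386). The coefficient of variation within a group had a median over members of 29.4% in Irx3 MI hearts and 24.4% in control MI hearts, against 8.48% in sham hearts.

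The related lists are read against the 25.2% of all genes called higher and 24.1% called lower, or 14.2% and 13.2% after GC correction. Of the 26 assembly factors, 7 were called higher and 5 lower, and 6 higher and 0 lower after GC correction. Among them, Mterf3, which acts in mitoribosome assembly, stood at 1.36 and the GTPase Gtpbp10 at 1.51. Both were called after GC correction too, at 0.80 and 0.95. Of the translation factors, 4 were called higher and 2 lower, and 2 higher and 0 lower after GC correction, with the initiation factor Mtif2 at 1.60 and, GC-corrected, at 1.02. Of the synthetases, 5 were called higher and 6 lower, and 2 higher and 2 lower after GC correction. Lars2 was called at -1.19 and, GC-corrected, at -1.10. Nuclear oxidative phosphorylation genes had 8 of 72 called higher and 7 lower, and 3 higher and 3 lower after GC correction. All 13 mitochondrially encoded mRNAs were called higher, with a median of 3.02, and 9 of 13 after GC correction, with a median of 1.83. The mitochondrial rRNAs mt-Rnr1 and mt-Rnr2 were called higher at 3.31 and 2.43, and mt-Rnr1 alone after GC correction, at 1.80. As above, counts from polyadenylated RNA do not measure the amount of rRNA in the ribosome.

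Comparing Irx3 MI with sham hearts sets the treated infarct beside the operated control. It shares its libraries with both other comparisons, so its values are given beside theirs and not as separate evidence. Of the 77 members, 37 were called lower and 4 higher, with a median log2 difference of -0.48, against 0.12 over all genes tested. Over all genes tested, 27.7% were called lower and 35.2% higher. After GC correction 38 members were lower and 2 higher, with a median of -0.45, against 22.3% of all genes lower and 31.8% higher. All 8 fibroblast and 7 of 8 macrophage markers were called higher in Irx3 MI than in sham hearts, and 6 of 10 cardiomyocyte markers were called lower and 1 higher. Their part in the result was not tested. Of the 52 genes called lower in control MI hearts, 33 were also called lower in Irx3 MI hearts, and 19 were not called. Of these 19, 7 were called higher in Irx3 MI than in control MI hearts, and 12 were not called in that comparison. There, 25.2% of all genes tested were called higher, and the same joint counts were not made over all genes. The 52 genes were picked by low values in control MI libraries, which that comparison shares, so these counts do not show recovery.

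Mrpl4, Mrpl38, Mrps26, Mrpl2, Mrps12 and Mrpl37 had the smallest p among the genes lower in Irx3 MI than in sham hearts. Their log2 differences were -1.75, -1.30, -1.20, -1.57, -1.29 and -1.23, and all 6 were also called after GC correction, at -1.14, -0.71, -1.25, -1.004, -0.70 and -0.76. For Mrpl4, the levels of 44.4 to 77.6 CPM in Irx3 MI hearts compare with 164 to 212 CPM in sham hearts. The 4 genes called higher were Mrpl33 at 1.55, Mrpl32 at 1.37, Mrpl1 at 0.95 and Mrps18c at 1.61. Of these, Mrpl33 was also called after GC correction, at 1.24 (edgeR adjusted p = 0.000131). Mrpl1 then stood at -0.01. Mrps36 and Mrpl47, both called lower in control MI than in sham hearts, differed from sham hearts by 0.44 and 0.36 without a call (edgeR adjusted p = 0.193 and 0.237). The call of Mrps36 in control MI hearts, at -0.86, was lost without control MI replicate 3 or sham replicate 1 or 3, at an edgeR adjusted p of 0.0507 to 0.055.

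Mrps35 and Mrps28 stayed far below sham levels in both infarcted groups. Mrps35 had 25.96, 38.6, 29.6 and 53.6 CPM in Irx3 MI hearts, and its log2 difference from sham hearts was -1.10 (SE 0.257, edgeR adjusted p = 0.00236). Mrps28 averaged 17.96 ± 7.08 CPM in Irx3 MI hearts, with a log2 difference from sham hearts of -1.37 (edgeR adjusted p = 0.000317). The disease genes Mrpl3 and Mrps14 were not called in this comparison, at -0.37 and -0.32, and Mrps16 was called lower at -0.84. After GC correction Mrps14 was called lower at -0.99 (edgeR adjusted p = 0.000406).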

How the data were processed

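Polyadenylated RNA of 12 left ventricle libraries, 4 per group, was sequenced by the submitters. The authors deposited unnormalised counts of reads for each gene. Reads were trimmed with fastp and the build was GRCm39 (mm39), per the submitters' processing notes. For the aligner, counter, annotation and strand, details were not given in the sources used here. No 2 libraries agreed within sampling noise. The labels give 1 batch and do not say whether libraries are separate animals, so p-values measure the spread between libraries.

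Counts were fitted with edgeR 4.0.16 (R 4.3.3): TMM factors, filterByExpr, robust quasi-likelihood with 1 term per group over the 12 libraries (9 residual degrees of freedom), and Benjamini-Hochberg adjustment over 15742 genes. A call is an adjusted p under 0.05. Positive log2 differences mean higher in the first-named group. The GC-corrected fit added to each library a spline offset (natural, 6 degrees of freedom) on transcript GC content (GENCODE M21, matched for 96.5% of genes by symbol). That annotation also gave lengths and shared exons, and its coordinates (GRCm38) were not joined to the counts. Alternatives were DESeq2 1.42.0, other scalings and filters, a replicate block, a GC and length correction, the 2 groups alone, mitochondrially encoded genes removed, and single libraries left out. The omission of replicate 4 from both infarcted groups was chosen after seeing the data. Fits were also run on simulated counts, with and without the same GC trend in every library of 1 group. The infarcted libraries differed among themselves, so those runs do not show how the fits fare on these data. CPM floors of 3 counts cover counting error only.

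Members and lists were chosen with earlier results of these data known. The genes named are, per comparison, the 6 called members of smallest p in each direction and called members against the majority, members with set roles, the 3 highest and 3 lowest per length in sham hearts, and those not tested. Of related lists, at most the 2 genes of smallest p are named per comparison, and for some lists fewer or none. Of the biogenesis factors, further genes are named. Mrpl40 was added after its values were seen.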

Additional observations from a re-analysis of the deposited data

Results flagged for a closer look

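In 3 of 111 groups of 4 values checked, 1 library lay far from the other 3 by Dixon's criterion, and chance flags about 1 in 20 such groups. All 3 were the value of Irx3 MI replicate 4 in the Irx3 MI group. Mrpl32 had 20.7 CPM in that library, against 10.2 to 11.1 CPM in the other 3. Mrps36 had 41.5 CPM there, against 20.3 to 22.8 CPM in the other 3. Mrpl40 had 22.3 CPM there, against 12.5 to 13.9 CPM in the other 3. That library also had the highest share of mitochondrially encoded reads, 19.01%, and the highest summed member level of the infarcted libraries. Its summed fibroblast markers, 3765 CPM, and macrophage markers, 821 CPM, were the lowest of the infarcted libraries. The part of these traits in the flagged values was not tested.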

How the results depend on the processing

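Between control MI and sham hearts, 41 to 61 members were called lower and 0 higher across all alternatives, and the median stayed between -0.86 and -0.51. Between Irx3 MI and sham hearts, 34 to 55 were called lower, and the count called higher was 2 instead of 4 with GC correction and 1 with GC correction and a replicate block. Between Irx3 MI and control MI hearts, the count called higher, 16 in the main fit, was 10 with the 2 groups alone, 10 with a replicate block, 6 with that block and GC correction, 8 with replicate 4 of both infarcted groups left out, and 6 with GC correction besides. Leaving out single libraries gave 9 to 22. The count called lower, 7 in the main fit, was 3 with GC correction, 4 with GC and length correction, 3 with GC correction and the block, 24 with both replicates left out and 14 with GC correction besides. Leaving out single libraries gave 4 to 17.

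The replicate numbers did not pair the libraries: residual correlations of same-numbered libraries were -0.42 to 0.10. A log2 difference was counted as reversed when its sign changed and the main or the alternative fit called it. Of the genes named, none was reversed in this sense between control MI and sham hearts. Uncalled estimates near 0 did change sign. Mrpl33 went from -0.10 to 0.047 with GC and length correction, and Mrpl52 from 0.006 to -0.11 without control MI replicate 1. For the other comparisons, sign changes without a call are not listed. Between Irx3 MI and control MI hearts, Mrpl38 stood at 0.21 with GC correction, 0.17 with GC and length correction and 0.21 with GC correction and the block. Mrps14 stood at -0.46 with GC and length correction and -0.68 with both replicates left out and GC correction, where Mrps30 stood at -0.23. Between Irx3 MI and sham hearts, Mrpl1 stood at -0.005 with GC correction, -0.022 with GC and length correction, -0.048 with GC correction and the block, and -0.25 with both replicates left out and GC correction. Mrps30 stood at -0.53, -0.55, -0.54 and -0.69 in the same 4 settings. Mrpl47 stood at -0.38 in the last of them, and Mrpl52 at 0.081 with GC and length correction. The cause was not tested.

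Depth limits the members of few counts, such as Mrps18c, whose call between Irx3 MI and control MI hearts had an adjusted p of 0.0602 in edgeR with GC correction and the block. In that setting Mrpl32 stood at 0.76 (0.0509). Without counting details, members that share exons with other genes are uncertain. Cell makeup and RNA per cell cannot be told apart in these libraries.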

Other observations

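Of 15 factors known to drive mitochondrial biogenesis, 7 were called lower and 3 higher in control MI against sham hearts, where 22.4% of all genes tested were called lower and 26.3% higher. The estrogen-related receptors Esrrg and Esrrb had log2 differences of -1.29 and -1.30 (edgeR adjusted p = 0.00051 and 0.000962), and Gabpa, the DNA-binding subunit of GABP, stood at -0.66. Nrf1 and Yy1 were not called, at -0.09 and -0.10. In Irx3 MI against control MI hearts, 6 were called higher and 4 lower, where 25.2% of all genes were higher and 24.1% lower. After GC correction 1 was higher and 2 lower, where 14.2% of all genes were higher and 13.2% lower. Gabpa and Gabpb1 were at 1.28 and 1.11, and with GC correction at 0.39 and 0.53, where Gabpa alone was called (edgeR adjusted p = 0.00566 and 0.0555). The coactivator gene Ppargc1a was at -1.63 and, GC-corrected, at -1.81, and was called in both fits. Its levels overlapped, with 47.5 to 84.4 CPM in Irx3 MI hearts and a wide 42 to 443 CPM in control MI hearts.

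The difference between the mitochondrial set and the 75 tested genes for proteins of the cytosolic ribosome was not tested. Of the 75, in control MI against sham hearts, 34 were called higher and 1 lower, with a median log2 difference of 0.35. In that comparison 26.3% of all genes tested were called higher and 22.4% lower. In Irx3 MI against control MI hearts, 2 were called higher and 50 lower, with a median of -0.66, and 48 were lower after GC correction. Over all genes tested, 25.2% were called higher and 24.1% lower there, or 14.2% and 13.2% after GC correction. In the same comparison 4 of 8 macrophage markers were called lower, with a median of -0.61, and their part in the result was not tested. Rpl37a and Rpl37 had the smallest p of the list between Irx3 MI and control MI hearts, at -1.36 and -1.26. The summed level of all 76 cytosolic ribosomal protein genes, tested or not, was 10400 ± 981 CPM in Irx3 MI hearts. It was 17240 ± 2338 CPM in control MI hearts and 13650 ± 1315 CPM in sham hearts (SD, n = 4 each).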
